A study of Mus musculus with 2 samples.

Results

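The interferon gamma-induced GTPases described here are 10 genes, Gbp2, Gbp2b, Gbp3, Gbp4, Gbp5, Gbp6, Gbp7, Igtp, Irgm1 and Iigp1. The genes were chosen by name from a gene family and not by a rule on their values, but with earlier results of these data known. They matched 11 of the 27998 rows of the deposited matrices, because the symbol Gbp6 stands on 2 rows. They were read by droplet 3' single-cell RNA sequencing in viable immune (CD45+) cells that had been sorted out of MC38 tumours. MC38 is a colon carcinoma line of the mouse. MC38 cells were placed in the skin of C57BL/6J mice at 4 sites per mouse and grew for 7 days. The treatment went into the tumours and was either a control or an antibody to PD-1, an inhibitory receptor of T cells, with each mouse given 200 µg of antibody daily. Tumours were collected on day 10. There was 1 control library and 1 anti-PD-1 library, and how many mice stand behind each was not stated in the labels. No test between the treatments is therefore possible, and every interval below is a 95% interval for counting error only, with no replicate check.

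Interferon gamma is released by activated T and NK cells and signals through its receptor and JAK kinases, which leads to induction of the transcription factor IRF1. Interferon signalling drives the guanylate-binding proteins (GBPs) and the immunity-related GTPases (IRGs), large GTPases that gather on the vacuoles of intracellular microbes and help to break them open. GBPs also promote inflammasome activation. Among the IRGs, Irgm1 and Igtp (also called Irgm3) encode regulators that guard the cell's own membranes, and Iigp1 (Irga6) encodes an effector that coats the vacuole. Many of these genes also respond to type I interferon. In tumours, where no such microbe need be present, the genes are used as a readout of interferon exposure.

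The promoters were searched for the letters of the interferon-responsive elements. Of the 10 genes, 7 had a promoter in the RefSeq table (build GRCm38.p6). All 7 held the interferon-stimulated response element letters (GAAA, any 2 bases, GAAA), on either strand, within 250 bases before the start site, against 2.98% of 32851 promoters. Gbp5, Gbp7 and Igtp also held the gamma-activated site letters TTCNNNGAA, a palindrome, which stood in 7.02% of promoters. Both motifs together stood in 0.332%. The 3 promoters with both motifs are printed 5′ to 3′, with that of Gbp2b beside them because it was the 1 member past 2-fold lower in a compared class. Each stops before the first annotated exon base, and capitals mark the motif matches. The RefSeq start sites of Gbp5, Gbp2 and Irgm1 lie inside the longer GENCODE genes, as do their response elements. Gbp3 had a second window, which held neither motif.
Igtp, chr11:58199306-58199555, plus strand: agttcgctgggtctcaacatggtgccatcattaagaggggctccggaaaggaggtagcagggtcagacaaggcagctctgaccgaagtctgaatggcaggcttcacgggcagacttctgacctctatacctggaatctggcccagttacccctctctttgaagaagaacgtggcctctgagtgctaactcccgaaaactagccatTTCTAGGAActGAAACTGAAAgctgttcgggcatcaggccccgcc
Gbp7, chr3:142530086-142530335, plus strand: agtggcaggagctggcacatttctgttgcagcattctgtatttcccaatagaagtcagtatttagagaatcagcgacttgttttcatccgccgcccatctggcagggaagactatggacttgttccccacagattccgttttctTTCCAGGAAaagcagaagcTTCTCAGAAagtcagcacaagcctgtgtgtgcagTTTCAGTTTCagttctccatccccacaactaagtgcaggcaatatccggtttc
Gbp5, chr3:142496684-142496899, plus strand: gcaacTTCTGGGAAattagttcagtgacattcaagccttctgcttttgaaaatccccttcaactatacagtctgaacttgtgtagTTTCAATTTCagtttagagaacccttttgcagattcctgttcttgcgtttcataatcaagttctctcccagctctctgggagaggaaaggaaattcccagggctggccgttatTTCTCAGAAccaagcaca
Gbp2b, chr3:142594597-142594846, plus strand: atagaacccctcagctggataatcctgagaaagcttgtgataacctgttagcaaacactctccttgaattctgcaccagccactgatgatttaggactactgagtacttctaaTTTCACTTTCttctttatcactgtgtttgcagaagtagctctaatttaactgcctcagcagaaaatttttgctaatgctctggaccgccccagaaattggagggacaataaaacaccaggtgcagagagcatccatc
In Igtp the gamma-activated site lay at -45 to -37 and the response element at -34 to -25 from the start site. Gbp7 had its response element at -53 to -44, and Gbp5 at -165 to -156. The Gbp2b element lay at -137 to -128 with the same letters, TTTCACTTTC, as the Gbp2 element at -59 to -50. A match says only that the letters are there.

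The control matrix held 5203415 UMIs (unique molecular identifiers, each standing for 1 captured transcript) and the anti-PD-1 matrix 13717817. Barcodes with at least 1000 UMIs and at most 10% mitochondrial UMIs were kept, giving 1174 control and 3321 anti-PD-1 cells with medians of 3287 and 2763 UMIs. The libraries shared 4 cell barcodes. Cells were assigned to 14 classes by marker gates, which took 68.7% and 77.0% of cells. No doublet caller was run. The lymphoid gates allowed up to 3 myeloid marker UMIs, and the NK and myeloid gates up to 1 CD3 UMI. The myeloid gates also allowed 1 NK marker UMI, and the T-cell gates set no limit on NK markers. Barcodes past these limits stayed outside the gates, so some mixed barcodes may remain in the classes. The names were checked on markers the gates did not use, except Ms4a7. This macrophage check gene counted toward the myeloid limit of the lymphoid gates, which holds it down in those classes. The T, NK, monocyte and neutrophil check sets were each highest in the classes of their own name, but the macrophage and dendritic sets did not keep the myeloid classes apart. The dendritic set (H2-Aa, H2-Ab1, Flt3 and Zbtb46) was highest in type 2 dendritic cells (23303 and 21340 in CPM, UMIs per 1000000 UMIs of the class). It was higher in other C1q macrophages (19900 and 7971 CPM, with Zbtb46 at 0) than in migratory dendritic cells (7774 and 3948 CPM). Only Lck and Cd2 of the 4 T-cell check genes were rows of the matrices. Macrophage check genes (Ms4a7, Apoe and Aif1) were lower in the anti-PD-1 library in other C1q macrophages (12291 to 5821 CPM), classical monocytes (6469 to 1242 CPM) and inflammatory monocytes (7687 to 383 CPM). Control monocytes of both kinds thus lay above the anti-PD-1 macrophages for these genes, and the monocyte and macrophage names are those of the gates. Anti-PD-1 inflammatory monocytes carried 4130 CPM of neutrophil check genes, against 1200 CPM in control ones and 11991 CPM in the neutrophil class. Free RNA was estimated from C1q UMIs in CD8 T and NK cells, at 1.18% and 2.16% of cell UMIs. At these shares it would give 6.57 and 30.5 CPM of the 10 genes together. The gates of those cells cap C1q UMIs, so the shares may be too low.

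Control cells gave 3087 UMIs of the 10 GTPases, and anti-PD-1 cells 14335. Their summed level differed widely between classes. In the control library it was highest in Foxp3 T cells (regulatory T cells, CD3-positive with Foxp3) at 1351 CPM (1212 to 1502). Classical monocytes (1077 CPM), Ccl8/Mrc1 macrophages (1014), inflammatory monocytes (958), other C1q macrophages (842) and hypoxic macrophages (837) followed, each with an interval that overlapped that of its neighbour in the order. The interval of Foxp3 T cells lay just above that of classical monocytes (956 to 1209). Conventional CD4 T cells (CD3- and Cd4-positive with neither Foxp3 nor CD8), which were not a gated class, stood above classical monocytes at 1124 CPM. Their anti-PD-1 level was 1384 CPM. A high level was thus not particular to Foxp3 T cells among the CD4 T cells. CD8 T cells stood lower at 483 CPM (405 to 572), and their interval did not overlap that of hypoxic macrophages. Type 2 dendritic cells (410 CPM), migratory dendritic cells (332) and NK cells (274) were lowest, again with overlapping neighbours.

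In the anti-PD-1 library the order began with neutrophils at 2734 CPM (2393 to 3111), a class of 51 cells with a median depth of 1415 UMIs and no control cells. Inflammatory monocytes stood at 2270 CPM (2162 to 2381), Foxp3 T cells at 1932 (1807 to 2063), other C1q macrophages at 1668 (1586 to 1752) and classical monocytes at 1327 (1237 to 1422). CD8 T cells at 1054 CPM, type 2 dendritic cells at 1010, S100a8-high monocytes at 971 and nonclassical monocytes at 872 followed, each with an interval that overlapped the next among these 4. The interval of CD8 T cells lay below that of classical monocytes, and that of nonclassical monocytes above that of migratory dendritic cells. Migratory dendritic cells (556 CPM) and NK cells (383 CPM) were again the lowest. Wherever both libraries had 20 or more cells of a class, the anti-PD-1 level was the higher.

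**Figure D1:**
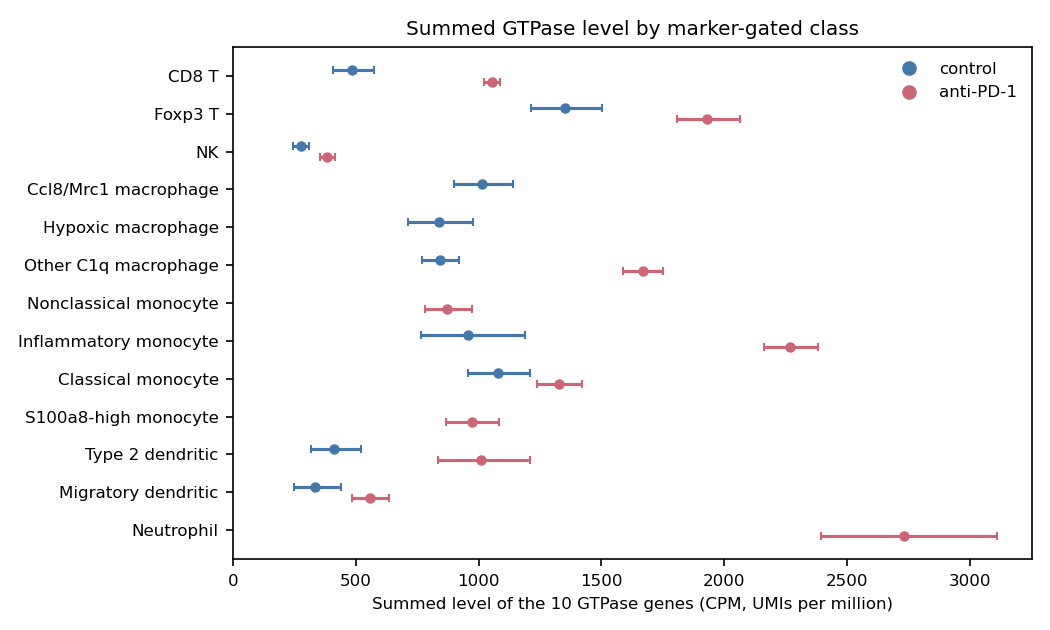
Summed level of the 10 GTPase genes in CPM (x axis) for each marker-gated class with at least 20 cells in a library; points are the level, bars the exact 95% Poisson interval, blue the control and red the anti-PD-1 library. Foxp3 T cells lead the control library at 1351 CPM, neutrophils the anti-PD-1 library at 2734 CPM, and NK cells are lowest in both at 274 and 383 CPM.

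Each gene had its own distribution over the classes. Counts come from 3' tags, so each gene is compared with itself across classes and not with other genes. Gbp2, a GBP of the chromosome 3 cluster (chr3:142620602-142638008, build GRCm38), was lowest in NK cells (22.5 CPM in control, 53.5 in anti-PD-1 cells). Its highest level was in myeloid cells, 312 CPM in control inflammatory monocytes, and 908 and 1101 CPM in anti-PD-1 inflammatory monocytes and neutrophils. The intervals of those last 2 classes overlapped. In T cells Gbp2 stood at 64.9 and 213 CPM in CD8 T cells and at 86.9 and 164 CPM in Foxp3 T cells.

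Gbp7 (chr3:142530342-142550149) and Igtp had another order. Gbp7 was at 332 CPM (265 to 411) in control Foxp3 T cells, and no other gated control class passed 131 CPM, the level of classical monocytes. Conventional CD4 T cells, which were not among the 14 gated classes, stood at 215 and 206 CPM. In the anti-PD-1 library Foxp3 T cells (261 CPM), neutrophils (225 CPM, from 19 UMIs) and CD8 T cells (192 CPM) led. Igtp, the regulatory IRG also called Irgm3 (chr11:58199556-58207591), was likewise highest in Foxp3 T cells in both libraries, at 348 CPM (279 to 428) and 596 CPM (528 to 671). Control hypoxic macrophages, classical monocytes and inflammatory monocytes stood between 104 and 109 CPM. With anti-PD-1, conventional CD4 T cells (435 CPM), neutrophils (367), CD8 T cells (269) and inflammatory monocytes (237) followed. Migratory dendritic cells were the lowest class for both genes. Gbp7 was at 13.3 and 5.12 CPM (2 UMIs in each library) and Igtp at 13.3 and 30.7 CPM (2 and 12 UMIs). The anti-PD-1 Igtp interval (15.9 to 53.7) overlapped those of nonclassical monocytes and NK cells.

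Iigp1, the vacuole-coating IRG effector on chromosome 18, was uneven between lineages. It was at 138 and 307 CPM in Foxp3 T cells, 117 and 333 CPM in other C1q macrophages and 105 and 192 CPM in classical monocytes. NK cells gave 5 and 10 UMIs, 4.51 and 6.15 CPM. Free RNA alone would give 2.19 and 3.03 CPM at the shares estimated above, which may be too low. The control value rests on 6 free Iigp1 UMIs. Migratory dendritic cells gave 0 and 1 UMI. Neutrophils gave 0 UMIs, with an upper bound of 43.7 CPM, although Gbp2 and Irgm1 were at 1101 and 781 CPM in them. CD8 T cells stood low at 10.8 CPM (3 UMIs) and 24.0 CPM.

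Irgm1, the regulator whose loss is known to harm macrophages and lymphocytes (chr11:48861968-48871683), was, like Gbp2, highest in control inflammatory monocytes and in anti-PD-1 neutrophils. Migratory dendritic cells were the lowest class for it with anti-PD-1 (46.1 CPM, overlapping NK cells), whereas Gbp2 stood at 264 CPM in them. Irgm1 was at 219 and 498 CPM in inflammatory monocytes, 206 and 223 CPM in classical monocytes and 37.9 and 54.7 CPM in NK cells. Gbp3 (chr3:142560026-142573209) was highest in control classical monocytes at 183 CPM and in anti-PD-1 Foxp3 T cells at 179 CPM. Gbp5 (chr3:142493978-142522344), a GBP known for its part in inflammasome assembly, was sparse, from 0 UMIs in control type 2 dendritic cells (upper bound 22.6 CPM) and 4.51 CPM in control NK cells to 74.3 CPM (29 UMIs) in anti-PD-1 migratory dendritic cells and 82.9 CPM (7 UMIs) in neutrophils.

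The chromosome 5 genes were Gbp4 (chr5:105115767-105139586) and Gbp6 (chr5:105270702-105293698). Gbp4 was highest in Foxp3 T cells, at 158 and 171 CPM, and low in type 2 dendritic cells, with 3 UMIs in each library. Gbp6 was found mainly in Foxp3 T cells, at 43.5 and 30.3 CPM, and in CD8 T cells at 0 and 13.0 CPM. The last 500 bases of Gbp6 transcripts share 87.3% of their 60-base words with Gbp10, Gbp4, Gbp9 and Gm43302, so its reads may have been split between copies or dropped, and its values are uncertain. For Gbp4 the share was 11.1%. The row named Gbp6 for the overlapping gene model Gm43302 had 0 UMIs in cells.

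**Figure D2:**
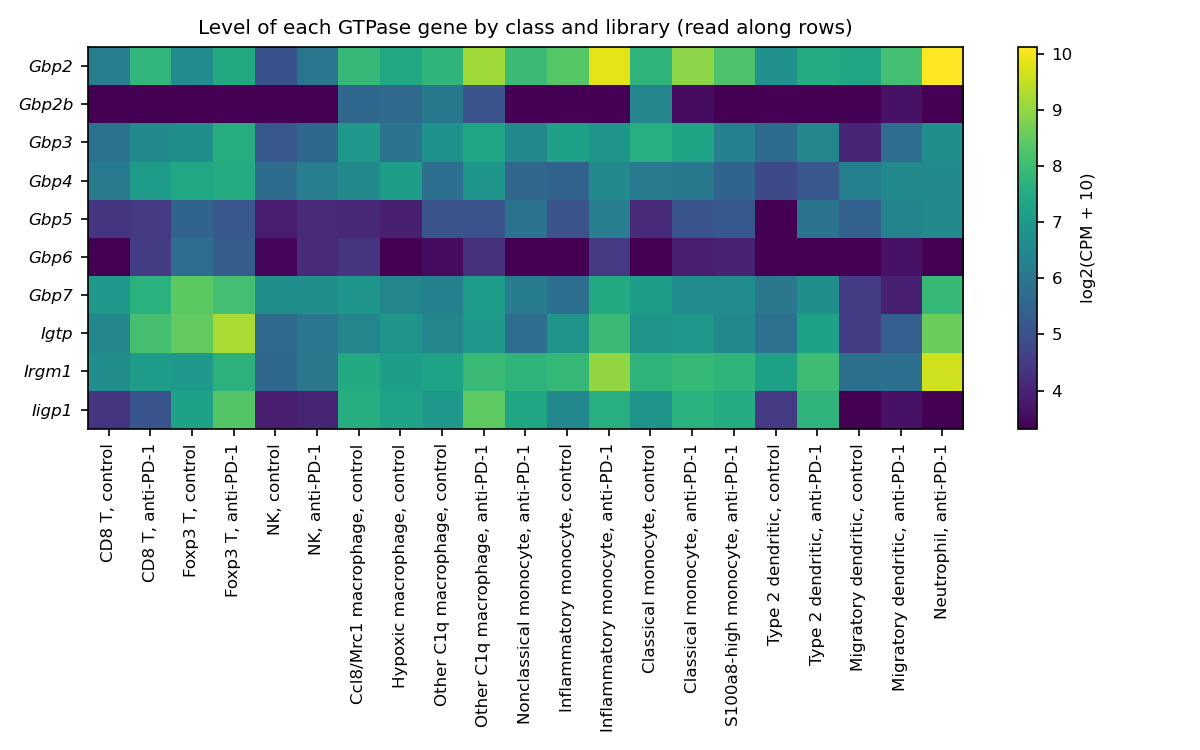
Level of each GTPase gene (rows) in each class and library with at least 20 cells (columns), as log2(CPM + 10); colours are to be read along a row. Gbp7 and Igtp are brightest in Foxp3 T cells among control classes (332 and 348 CPM), Gbp2 and Irgm1 in anti-PD-1 neutrophils and inflammatory monocytes, and Gbp2b is near 0 outside macrophages and classical monocytes.

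Ratios between the libraries were formed where both held 30 cells or more, which left 5 of the 14 gated classes. CD8 T cells (71 control and 1092 anti-PD-1 cells) showed the widest difference of the summed level, 483 against 1054 CPM, a log2 ratio of 1.13 (0.88 to 1.38). This interval overlapped that of other C1q macrophages (0.84 to 1.14). Igtp went from 22 UMIs (79.3 CPM) to 1074 UMIs (269 CPM), log2 ratio 1.76 (1.15 to 2.44). Gbp2 went from 18 UMIs (64.9 CPM) to 853 UMIs (213 CPM), log2 ratio 1.72 (1.05 to 2.48). Gbp4 was at 61.3 and 125 CPM, log2 ratio 1.03 (0.33 to 1.82). These were 3 of the 6 members with a mean of at least 20 CPM that were 2-fold or more higher, against 5.04% of the 4383 genes at that level, and 0 were 2-fold or more lower, against 3.31%. Gbp7 (0.73), Gbp3 (0.74) and Irgm1 (0.44) had smaller log2 ratios, and the intervals of Gbp3 and Irgm1 reached below 0. The median over the 6 was 0.88, beside 0.09 over all genes.

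The CD8 T cells of the libraries were not alike in content. Gzmk, a granzyme gene of effector and memory cells, was found in 16 of 71 control and 714 of 1092 anti-PD-1 CD8 T cells. NK check genes (Eomes, Prf1, Gzma and Klrk1) summed to 872 and 2620 CPM. Among cells with Gzmb and no Gzmk (30 and 296 cells), the summed GTPase level was 365 and 976 CPM, log2 ratio 1.42, with an interval whose lower end was just past 2-fold and whose upper end was 1.86. Igtp there stood at 44.8 and 250 CPM. Among cells with neither granzyme (25 and 82 cells), it was 441 and 553 CPM, and the interval of the log2 ratio, -0.20 to 0.89, spanned 0. The difference between these subsets was not tested.

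Foxp3 T cells (81 and 163 cells) started from the highest control level and had a summed log2 ratio of 0.52 (0.33 to 0.70). Iigp1 was the 1 member past 2-fold, 138 against 307 CPM, log2 ratio 1.15 (0.61 to 1.73), where 5.64% of 4663 genes were that much higher. Gbp2 and Gbp3 had log2 ratios of 0.92 each (Gbp2 -0.076 after cells were thinned to 1000 UMIs), and Igtp and Irgm1 0.78 each. Gbp7 was at 332 and 261 CPM, log2 ratio -0.34 (-0.76 to 0.08), and Gbp5 (-0.46) and Gbp6 (-0.52) rested on 9 to 14 UMIs per library, all with intervals that spanned 0. None of the 9 members with enough signal was 2-fold or more lower, against 4.78% of genes. NK check genes stood at 94.8 and 467 CPM in this class and macrophage check genes at 107 and 30.3 CPM, and their part in the result was not tested.

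NK cells (319 and 529 cells) had the lowest levels and a summed log2 ratio of 0.48 (0.28 to 0.68). Gbp2 was at 22.5 and 53.5 CPM, log2 ratio 1.25 (0.59 to 1.95), and was the 1 of 6 members past 2-fold, where 1.15% of 4279 genes were that much higher and 0.467% that much lower. Gbp7, the NK member with the most UMIs, was at 94.7 and 94.1 CPM, log2 ratio -0.01 (-0.38 to 0.36). The other 4 had log2 ratios of 0.42 to 0.62, with intervals that spanned 0 for Gbp3, Igtp and Irgm1. Gbp4, the highest of them, turned to -0.092 after thinning to 1000 UMIs.

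Other C1q macrophages (C1q-positive without the Ccl8/Mrc1 or hypoxic markers; 100 and 157 cells) had a summed log2 ratio of 0.99 (0.84 to 1.14). Iigp1 was at 117 and 333 CPM, a 2.84-fold difference (log2 interval 1.12 to 1.91). Gbp2 was at 208 and 552 CPM, log2 ratio 1.41 (1.12 to 1.71), and Gbp4 at 46.2 and 108 CPM, log2 ratio 1.22 (0.59 to 1.90). These 3 of 9 members compare with 3.31% of 4563 genes. Gbp2b was 2-fold or more lower, as were 2.39% of genes. Irgm1, Gbp7, Igtp and Gbp3 had log2 ratios of 0.55 to 0.85 with intervals above 0 (Gbp7 -0.21 after thinning), and Gbp5 was at 23.1 and 23.2 CPM. The macrophage check genes of this class were lower with anti-PD-1, as given above, and so was the dendritic check set, which includes MHC class II genes. Their part in the result was not tested.

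Classical monocytes (69 and 119 cells) had a summed level of 1077 against 1327 CPM, log2 ratio 0.30 (0.11 to 0.50). This was the smallest of the 5, but not after thinning to 1000 UMIs (0.70, beside 0.50 in NK cells) or with each cell weighted alike (0.64, beside 0.52 in NK cells). Gbp2 was at 206 and 476 CPM, log2 ratio 1.21 (0.79 to 1.65), and Iigp1 at 105 and 192 CPM, log2 ratio 0.87 (0.27 to 1.52). Without Gbp2 the summed log2 ratio was -0.033. Gbp3 (-0.33) and Gbp7 (-0.56) were lower with intervals that spanned 0, and Igtp, Irgm1 and Gbp4 lay between -0.06 and 0.12. Of 8 members, 1 was past 2-fold higher and 1, Gbp2b, past 2-fold lower, against 6.99% and 5.11% of 4461 genes. The median was 0.03, beside 0.05 over all genes. The macrophage check genes were lower with anti-PD-1 here too, as was the dendritic set (11316 and 5137 CPM), and their part in the result was not tested.

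**Figure D3:**
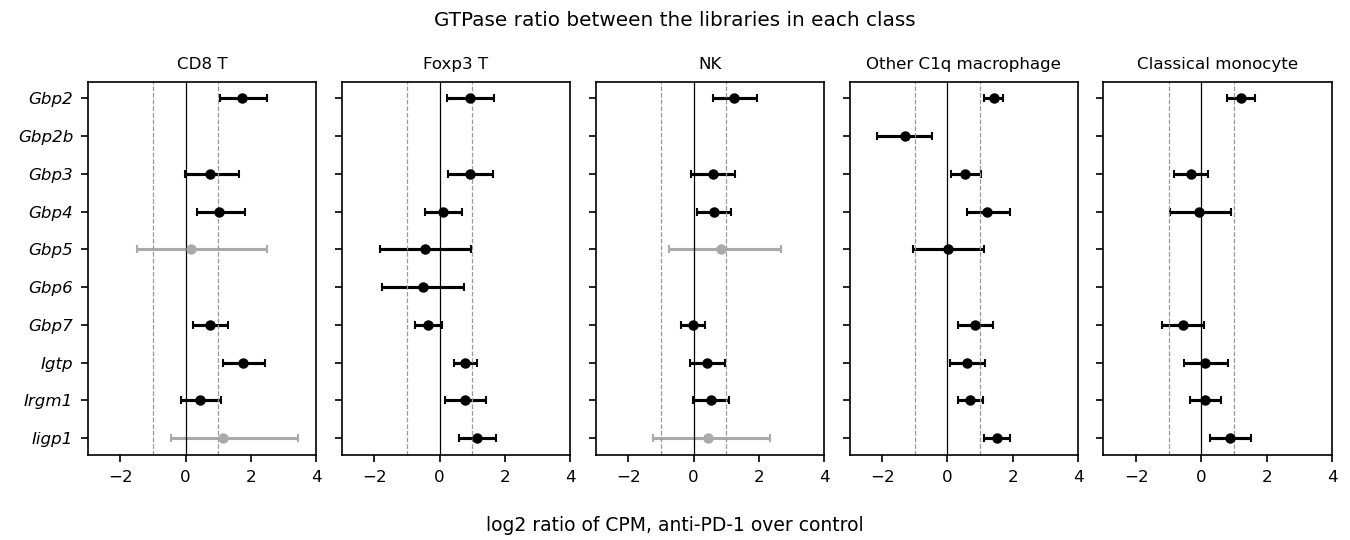
log2 ratio of CPM, anti-PD-1 over control (x axis), of each GTPase gene (rows) in the 5 classes compared; bars are 95% conditional binomial intervals, dashed lines mark 2-fold, and grey points are members under a mean of 20 CPM. Members with under 3 UMIs in a library are not drawn. Gbp2 lies to the right of 0 in all 5 classes (0.92 to 1.72), and Gbp2b to the left in other C1q macrophages (-1.29).

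Classes with 20 to 29 control cells, conventional CD4 T cells and barcodes outside every gate were added after the data were seen. Inflammatory monocytes (21 and 199 cells) had a summed log2 ratio of 1.24 (0.93 to 1.58), with Gbp2 at 312 and 908 CPM and Irgm1 at 219 and 498 CPM. The median over all genes there was -0.28. The inflammatory monocytes of the libraries were unlike in content. With anti-PD-1 the neutrophil check genes were higher and the macrophage check genes lower, as given above, and the dendritic set went from 11808 to 813 CPM. Their part in the result was not tested. Type 2 dendritic cells (25 and 24 cells) had a summed log2 ratio of 1.30 (0.85 to 1.75), and Iigp1 gave 2 and 24 UMIs in them. Migratory dendritic cells (25 and 86 cells) had 0.74 (0.29 to 1.22). Conventional CD4 T cells (44 and 107 cells), CD3-positive with neither Foxp3 nor CD8, had 0.30 (0.04 to 0.57). In them Igtp was at 229 and 435 CPM, while Iigp1 was at 209 and 149 CPM with an interval that spanned 0. Barcodes outside every gate had a summed log2 ratio of 0.98 (0.87 to 1.09).

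To see whether many or few cells carried the genes, each cell was thinned to 1000 UMIs. At least 1 GTPase UMI was then found in 25.4% (15.8 to 37.1) of the control CD8 T cells and in 61.5% (58.6 to 64.4) of those given anti-PD-1; unthinned shares were 62.0% and 88.2%. Other C1q macrophages went from 47.0% (36.9 to 57.2) to 70.7% (62.9 to 77.7), with unthinned shares of 82.0% and 95.5%. The intervals of the thinned shares did not overlap in these 2 classes. They overlapped in Foxp3 T cells (71.6% and 79.1%, unthinned 93.8% and 95.1%), NK cells (23.2% and 31.2%, unthinned 53.0% and 57.7%) and classical monocytes (56.5% and 63.0%, unthinned 78.3% and 90.8%). Cells with 3 or more GTPase UMIs were 14.8% and 33.1% of Foxp3 T cells and 4.23% and 14.7% of CD8 T cells. The 8 highest of the 71 control CD8 T cells held 62.5% of their thinned GTPase UMIs, and the 110 highest of the 1092 anti-PD-1 ones held 35.9%. The means were 0.451 and 1.21 thinned UMIs per cell. Such a share tends to rise as the mean falls, so the 2 shares partly restate the difference in level.

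**Figure D4:**
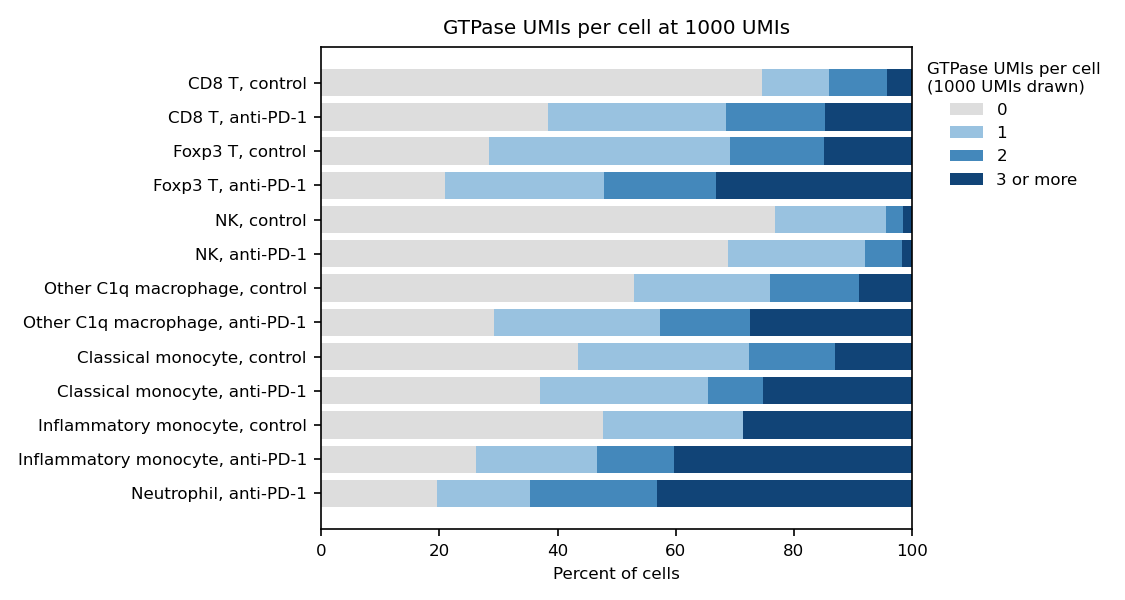
Percent of cells (x axis) with 0, 1, 2 or 3 or more GTPase UMIs after each cell was thinned to 1000 UMIs, by class and library. The share with 0 is 74.6% for control CD8 T cells, 38.5% for anti-PD-1 ones and 19.6% in neutrophils, the lowest drawn.

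Gbp2b was the 1 member past 2-fold lower in other C1q macrophages and in classical monocytes. In the latter Gbp3, Gbp4 and Gbp7 also had log2 ratios below 0, with intervals that spanned 0. This GBP of the chromosome 3 cluster lies next to Gbp2 (chr3:142594847-142619179), and 0% of the words in its last 500 bases are shared with another gene. In macrophages and monocytes together, 26 of 275 control cells (9.45%, 6.27 to 13.5) held 71 Gbp2b UMIs, 49.2 CPM (38.4 to 62.0). In the anti-PD-1 library 16 of 603 cells (2.65%, 1.52 to 4.27) held 23 UMIs, 7.26 CPM (upper end 10.9), at median depths of 4681 and 4279 UMIs. The pooled log2 ratio was -2.76 (-3.51 to -2.06), while the other 9 members were between 0.12 and 1.51 in the same cells. The pool is made up differently in the libraries, with inflammatory monocytes, which gave 0 Gbp2b UMIs in both, 21 of the 275 control and 199 of the 603 anti-PD-1 cells, so the pooled ratio mixes class shares with levels. By class, other C1q macrophages gave 32 and 22 UMIs, 56.9 and 23.2 CPM, log2 ratio -1.29 (-2.14 to -0.46), and classical monocytes gave 20 UMIs and 1 UMI, 74.8 and 1.64 CPM, with an interval of -10.88 to -2.87. CD8 T, Foxp3 T and NK cells, which carry the same free RNA, gave 0 UMIs in 471 cells of the control and 1784 of the anti-PD-1 library at median depths of 2974 and 2746 UMIs. This allows up to 0.780% and 0.207% of such cells to hold a UMI at these depths (exact binomial), and sets no limit on cells that express the gene at a lower level.

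Few cells held the Gbp2b signal. In the control library 11 cells had 3 or more UMIs, the highest had 9, and the 5 highest held 34 of the 71. Control macrophages and monocytes with Gbp2b had 1756 CPM (1548 to 1985) of the other 9 members, against 753 CPM (707 to 802) in those without, at median depths of 5212 and 4599 UMIs. In the anti-PD-1 library the values were 1605 CPM (1380 to 1856) and 1569 CPM (1525 to 1614), which overlapped. Cells with Gbp2b thus stood above the rest for the other members among control cells, and no such gap was seen in the anti-PD-1 pool. The cells without Gbp2b were made up differently in the libraries. Inflammatory monocytes, all of them without Gbp2b, were 21 of the 249 control and 199 of the 587 anti-PD-1 cells. Their summed GTPase level was 958 and 2270 CPM. Both pooled comparisons thus mix class shares with levels. Neither a gap within classes nor the difference between the pooled gaps was tested.

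**Figure D5:**
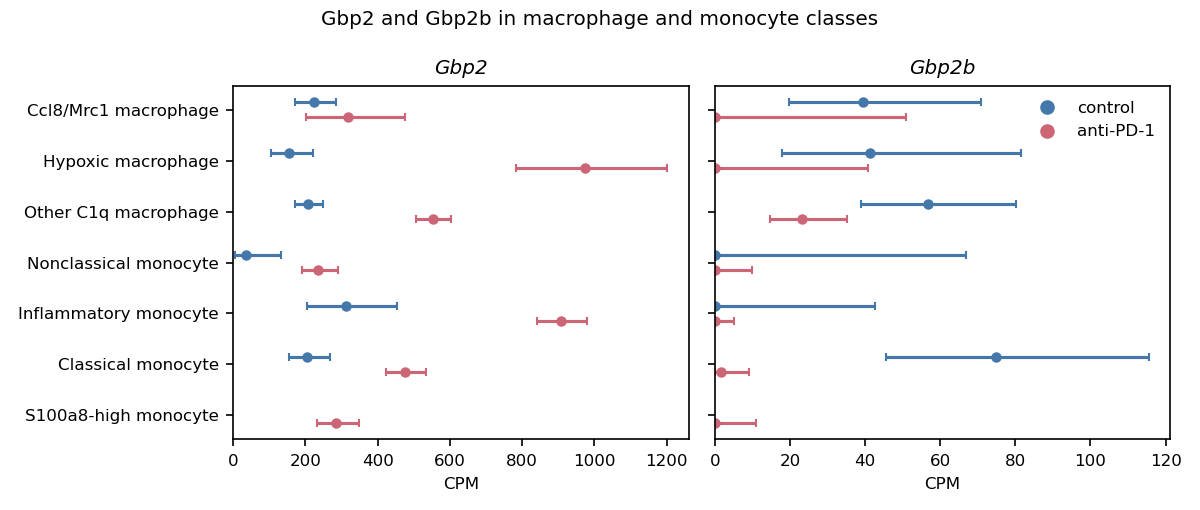
Level in CPM (x axis, separate scale per panel) of Gbp2 (left) and Gbp2b (right) in each macrophage and monocyte class with at least 10 cells in a library, with exact 95% Poisson intervals. In other C1q macrophages and classical monocytes Gbp2 is higher in the anti-PD-1 library (red; 552 and 476 CPM) than in the control (blue; 208 and 206 CPM), and Gbp2b is lower (23.2 and 1.64 against 56.9 and 74.8 CPM).

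Most genes upstream of the GTPases differed by less than 2-fold in the 5 classes. Ifng itself was at 710 CPM (614 to 817) among control CD8 T cells, against 572 CPM (549 to 596) among anti-PD-1 ones, log2 ratio -0.31 (-0.52 to -0.10), and at 93.8 and 103 CPM in NK cells. Irf1 had log2 ratios of 0.59 (0.06 to 1.18) in CD8 T cells, 0.65 (0.24 to 1.07) in NK cells, 0.53 (0.13 to 0.95) in other C1q macrophages and 0.75 (0.17 to 1.37) in classical monocytes. In Foxp3 T cells Irf1 was at 288 and 287 CPM. Irf1 differed more in 2 of the classes with fewer control cells. It was at 23.1 CPM (2.80 to 83.4, from 2 UMIs) and 464 CPM (416 to 516) in inflammatory monocytes, and at 166 CPM (107 to 245) and 459 CPM (394 to 531) in migratory dendritic cells. Of 10 upstream genes (Ifng, its receptor genes, Jak1, Jak2, Irf1, Irf8, Irf9, Stat2 and Socs1), those with enough signal were 7 in CD8 T cells, 7 in NK cells and 9 in other C1q macrophages, and 0 of them were past 2-fold. In Foxp3 T cells Stat2 was the 1 of 8 just past it, at 23.7 and 47.5 CPM (log2 interval -0.34 to 2.60), and in classical monocytes Socs1, the feedback inhibitor, was the 1 of 9 at 1.03 (0.18 to 1.97). The shares of all genes are those given for the members above.

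Other interferon gamma targets were mixed. Of 21 such targets in other C1q macrophages, 5 were 2-fold or more higher and 1 lower, against 3.31% and 2.39% of genes. Of the 21, 11 lay above 0 and 10 below, with a median of 0.11 beside 0.04 over all genes. Cxcl9, a chemokine for T cells, had a log2 ratio of 1.93 (1.48 to 2.40) and Irg1, the itaconate-producing enzyme gene, 2.26 (1.43 to 3.22). Ciita, the activator of MHC class II genes, was lower at -1.31 (-2.29 to -0.36). In classical monocytes 5 of 20 were higher and 1 lower, against 6.99% and 5.11% of genes, and the median was 0.13. Cxcl10 had 1.42 (1.07 to 1.79) and Cxcl9 1.69 (0.62 to 2.97) there, while the GTPase median was 0.03. In CD8 T cells 4 of 16 targets were 2-fold or more higher, against 5.04% of genes, and the median was 0.64 beside 0.09. Ly6a was among the 4 at 1.29 (1.11 to 1.49) and Fam26f at 1.73 (0.59 to 3.18). In classical monocytes Ly6a was lower, at -0.75 (-0.93 to -0.56). In NK cells 2 of 16 were higher, Upp1 at 2.24 (1.39 to 3.20) and Ly6a at 1.20 (1.01 to 1.40), against 1.15% of genes, and the median was 0.27 beside 0.10. In Foxp3 T cells 1 of 16 was higher, against 5.64%, and the median was 0.10 beside 0.01, while the GTPase median was 0.78.

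The list of type I interferon genes differed between classes. Its median log2 ratio was 0.42 in CD8 T cells (7 genes above 0 and 3 below) and 0.47 in NK cells (9 above and 1 below), beside 0.09 and 0.10 over all genes. It was 0.07 in Foxp3 T cells and 0.03 in other C1q macrophages, beside 0.01 and 0.04. In classical monocytes it was -0.36 (5 above and 12 below) beside 0.05. There 2 of 17 were 2-fold or more lower, Ifit3 at -1.33 (-1.94 to -0.74) and Ifit2 at -1.28 (-2.36 to -0.20), against 5.11% of genes. Oas2 was higher at 1.55 (-0.21 to 3.94), 1 of 17 against 6.99%, and Isg15 had 0.54 (0.24 to 0.84). In NK cells 2 of 10 were higher, Usp18 at 1.31 (0.78 to 1.87) and Rsad2 at 1.18 (0.42 to 2.00), against 1.15%. In other C1q macrophages 1 of 18, Oas1a, was lower at -1.26 (-2.14 to -0.41), against 2.39%. Of 18 other interferon-inducible GTPases listed, few had a mean of 20 CPM. In other C1q macrophages 2 of 7 were 2-fold or more higher, against 3.31% of genes, and 0 lower. Gm4951 stood at 19.5 and 82.4 CPM, log2 ratio 2.08 (1.16 to 3.14), and Tgtp2 had 1.29 (0.15 to 2.62). In classical monocytes 1 of 6 was higher (9930111J21Rik2 at 1.17, 0.06 to 2.47), against 6.99%, and 0 lower. In CD8 T cells (5 genes) and NK cells (3 genes) 0 were past 2-fold. In Foxp3 T cells 2 of 5 were higher and 1 lower, against 5.64% and 4.78% of genes, all with intervals that spanned 0. Gm4951 had 1.08 (-0.07 to 2.42) and Gbp8 1.06 (-0.41 to 2.83). Irgm2, the third regulatory IRG, was at 59.3 and 25.9 CPM (15 and 12 UMIs) there, log2 ratio -1.19 (-2.42 to 0.0020).

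Over 17 class and library profiles with at least 30 cells, the genes whose log2(CPM + 10) profile was most like that of the summed GTPases, among 2437 genes with a mean of at least 50 CPM, were Zbp1 (Pearson r 0.89), Bbip1 (0.88), Ifi47 (0.88), Isg15 (0.87), Samhd1 (0.84), Slfn2 (0.83), Xaf1 (0.82), Slfn1 (0.81), Ets2 (0.81) and Slc16a3 (0.81). Irf1 stood at rank 81 and Ifng at 2004 (r -0.42). Profiles of 1 library share its depth and its free RNA, so these values are descriptions and carry no p. Among the members, Gbp2 was most like Irgm1 (0.85) and Gbp7 most like Igtp (0.82), whereas Gbp2 and Gbp7 had r 0.05. Gbp2b had r between -0.41 and 0.36 with the others.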

How the data were processed

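The deposited matrices hold raw UMI counts for each gene and barcode, made by the authors with Cell Ranger 2.1 on build mm10, per the submitters' processing notes. They include empty barcodes, so cells were kept at 1000 UMIs or more and at most 10% mitochondrial UMIs. Classes came from marker gates on UMIs per barcode. Within a class and library, the UMIs of a gene were added up and scaled by those of all genes (CPM), with exact Poisson intervals; ratios have 95% conditional binomial (Clopper-Pearson) intervals and shares exact binomial intervals, covering counting error only. A gene with under 3 UMIs in a library was set to 3 there for counts and medians. With 1 library per group no test was run: a gene was called past 2-fold, and the share of all genes with a mean of 20 CPM or more that passed stands beside it. All 10 members are named, with pathway genes past 2-fold or needed for reference and the 10 genes of the most alike profile. The members, gates and lists were chosen with earlier results of these data known. Some genes of the pathway and marker lists are not reported here. Locations are from GENCODE M21 (GRCm38) and promoters from RefSeq. No source used here says whether the counting used strand; 8.01% of Igtp exon bases overlap Irgm2 and 11.3% of those of Gbp7 overlap Gm43802. Ratios were tested on simulated data. Alternatives covered the cell minimum, mitochondrial limit, free RNA, thinning to 1000 UMIs, gates, cell weighting, scaling, the fold and the filter. Python 3.11.15, numpy 2.4.6, scipy 1.17.1 and matplotlib 3.10.9 were used.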

Additional observations from a re-analysis of the deposited data

How the results depend on the processing

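With 1 library per group, no value has a replicate check, and CPM cannot show differences between mice or batches; the treatment and the library cannot be told apart. No paired analysis was possible because each group is a single library. Under the alternatives, 345 member ratios kept their direction and size, 14 moved and 3 changed sign. The summed log2 ratio stayed above 0 in all 5 classes under every alternative except classical monocytes without Gbp2, an alternative added after the data were seen, where it was -0.033. Thinning to 1000 UMIs moved it to 1.42 in CD8 T cells, 0.70 in classical monocytes and 0.77 in Foxp3 T cells, and weighting each cell alike moved it to 0.64 in classical monocytes. Leaving out the member with the most UMIs (added) gave 0.68 in NK cells without Gbp7 and 0.81 in other C1q macrophages without Gbp2. Thinning leaves few UMIs, and with it Gbp2 in Foxp3 T cells (-0.076), Gbp4 in NK cells (-0.092) and Gbp7 in other C1q macrophages (-0.21) changed sign.

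The counts of members past the fold moved more. At 1.5-fold, 5 members were higher in CD8 T cells (16.6% of all genes), 5 in Foxp3 T cells (14.8%), 3 in NK cells (7.62%), 6 in other C1q macrophages (11.7%) and 2 in classical monocytes (17.1%). In classical monocytes 2 were higher after thinning (4.70% of all genes), with each cell weighted alike (7.80%), with gate minimums doubled (6.72%) and without the filter on low values (5.91%). In Foxp3 T cells 3 were higher after thinning (3.89%) and 2 with each cell weighted alike (6.44%), and in NK cells 2 after thinning (4.69%) and 2 without the filter (4.63%). Lower by 2-fold or more were 1 member in CD8 T cells after thinning (18.5% of all genes), 2 in classical monocytes without the filter (10.2%) and 1 in Foxp3 T cells with gate minimums doubled (9.26%). Of the 2 in classical monocytes, only Gbp2b was lower in level. Gbp6 gave 0 control and 3 anti-PD-1 UMIs there (0 and 4.92 CPM), so its place in that count comes from the floor of 3 UMIs. Scaling by the median of gene ratios moved all genes by 0.01 to 0.10 on the log2 scale. In CD8 T cells it lowered all genes by 0.088, which puts Gbp4, just past 2-fold at 1.03, under that line. Iigp1 was under the filter in CD8 T cells, with 3 and 96 UMIs and a log2 ratio of 1.15. It passes 2-fold there once the filter is dropped, so the CD8 T count also depends on these settings.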
